A study of Mus musculus with 7 samples.

Results

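The Rag1 and Rag2 locus of the mouse was examined in a reporter assay of DNase hypersensitive sites, the stretches of open chromatin where regulatory elements lie. The locus was taken as a window of 220 kb on chromosome 2 (mm9, from 101.38 to 101.6 Mb), cut into 440 bins of 500 bp. A bin was used if it held at least 50 reads in each of 3 plasmid inputs, which left 6 bins in the window of 30117 bins in the genome. They are called bins A to F here, in the order of the chromosome. Read counts in the inputs chose them, and no reporter value entered that minimum. The same input counts are the denominators of the ratios to input below, so the choice is not independent of those ratios.

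The assay, CapStarr-seq, joins capture of chosen regions to a self-transcribing reporter. It was run in P5424, a line of immature T cells from the mouse. Each captured fragment sits inside the transcript whose level it can change, so the ratio of RNA reads to plasmid input reads gives its output relative to other fragments. Reporter RNA was read with a promoter labelled pR-Ea, with pPGK (the phosphoglycerate kinase promoter) in a library titled PMA_I, with pPGK alone, and with SCP1 (the super core promoter 1), together with 1 input for each of the 3 promoters. Both pPGK libraries share 1 input. PMA with ionomycin stands in the treatment field of all samples, and the library was taken as stimulated from its title, the 1 title that carries the agents' letters. PMA, a phorbol ester, switches on protein kinase C. Ionomycin carries calcium into cells, and the pair stands in for T cell receptor signals. There was 1 library in each group. The values therefore lack a replicate check, and p-values are not given. The differences are between these libraries.

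Rag1 and Rag2 encode the subunits of the recombinase that cuts DNA at recombination signal sequences and so starts V(D)J recombination of antigen receptor genes. The RAG1 protein holds the catalytic site, and RAG2 is its cofactor, which also reads a histone mark of active chromatin. The genes are neighbours that are transcribed towards each other and are expressed in developing lymphocytes. In mice they are known to be controlled together by distal elements as well as by their own promoters, and a silencer between the genes has been described. In the RefSeq gene table, which belongs to another build (GRCm38), Iftap lies beside Rag2 and Traf6 beside Rag1. No annotation of mm9 was used here, so the window was taken as that of the locus without a check, and none of the 6 bins was assigned to a promoter, an exon or an intron.

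The promoters of the locus are shown because they are its defining regulatory sequences. They are given 5′ to 3′ as the 250 bases before the gene start in RefSeq (GRCm38.p6), whose numbering differs from that of mm9. The Rag1 promoter is on the minus strand at chr2:101649533-101649782 of that build, and the Rag2 promoter on the plus strand at chr2:101624462-101624711. Capitals mark TGTGGT, the core of the site bound by RUNX factors, on either strand.
Rag1 promoter: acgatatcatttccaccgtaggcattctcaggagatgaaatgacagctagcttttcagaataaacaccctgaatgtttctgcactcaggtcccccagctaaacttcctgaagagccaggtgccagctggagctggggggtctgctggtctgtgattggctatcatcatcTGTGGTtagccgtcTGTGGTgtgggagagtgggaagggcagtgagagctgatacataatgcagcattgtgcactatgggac
Rag2 promoter: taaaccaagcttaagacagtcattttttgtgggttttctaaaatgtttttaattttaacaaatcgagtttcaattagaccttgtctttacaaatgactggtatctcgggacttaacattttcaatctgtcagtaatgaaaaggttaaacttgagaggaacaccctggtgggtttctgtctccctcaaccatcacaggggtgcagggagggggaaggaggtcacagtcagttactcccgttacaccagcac
TGTGGT occurs at 2 places in the Rag1 stretch and at none in the Rag2 stretch, and 14.0% of 32851 promoter stretches of the same length hold it on either strand. GGAAA, the core of the site of NFAT, a factor that calcium signals activate, occurs at 1 place for Rag1 and none for Rag2, with 55.6% of the stretches holding it. TGANTCA, the site of AP-1, occurs in neither, and in 6.75% of the stretches. No motif overlaps another motif of the 3 in these stretches. Whether a fragment of the library covers either stretch was not examined.

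The depth over the window was modest. It held 6753 pR-Ea reporter reads against 2458 input reads, 8471 pPGK PMA_I and 6198 pPGK reporter reads against 1989 input reads, and 7937 SCP1 reporter reads against 6071 input reads. Most of the window was not covered: input reads were found in 139 of the 440 bins with pR-Ea, 53 with pPGK and 107 with SCP1. Of the window's input reads, 47.6%, 53.5% and 37.6% of these inputs lay in bins A to F. Reads below are also given as RPM, scaled to the same total over the 30117 bins in every library. The log2 ratios use these totals and a pseudocount of 1. A bin was called above or below when the ratio was at least 2-fold, with a 95% interval that excluded equality.

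Bin A (chr2:101435501-101436000) was below input with every promoter, and it was the only one of the 6 bins called in any comparison with input. Over all bins, 8.27% were called below input with pR-Ea, 9.44% with pPGK PMA_I, 9.6% with pPGK and 14.6% with SCP1, so that 1 such bin among 6 is not far from the background. Bin A held 47 pR-Ea reporter reads against 123 input reads, which is 1.69 RPM against 12.1 RPM. With pPGK PMA_I it held 66 reporter reads (2.42 RPM) and with pPGK 38 (1.51 RPM), both against 262 reads of the pPGK input (25.05 RPM). With SCP1 the counts were 21 reporter reads (0.629 RPM) against 73 input reads (2.78 RPM). Its output was thus far under its share of the plasmids in all 4 libraries. The log2 ratio was -2.81 with pR-Ea (95% counting interval -3.35 to -2.34), a level 7.03-fold below input. It was -3.36 with pPGK PMA_I (-3.78 to -2.98), 10.2-fold below. It was -4.02 with pPGK (-4.59 to -3.56), 16.3-fold below, and -2.09 with SCP1 (-2.92 to -1.43), 4.27-fold below. The ratios are relative to the average bin, with no neutral insert as a baseline, so a level below input is not shown to be silencing.

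**Figure D1:**
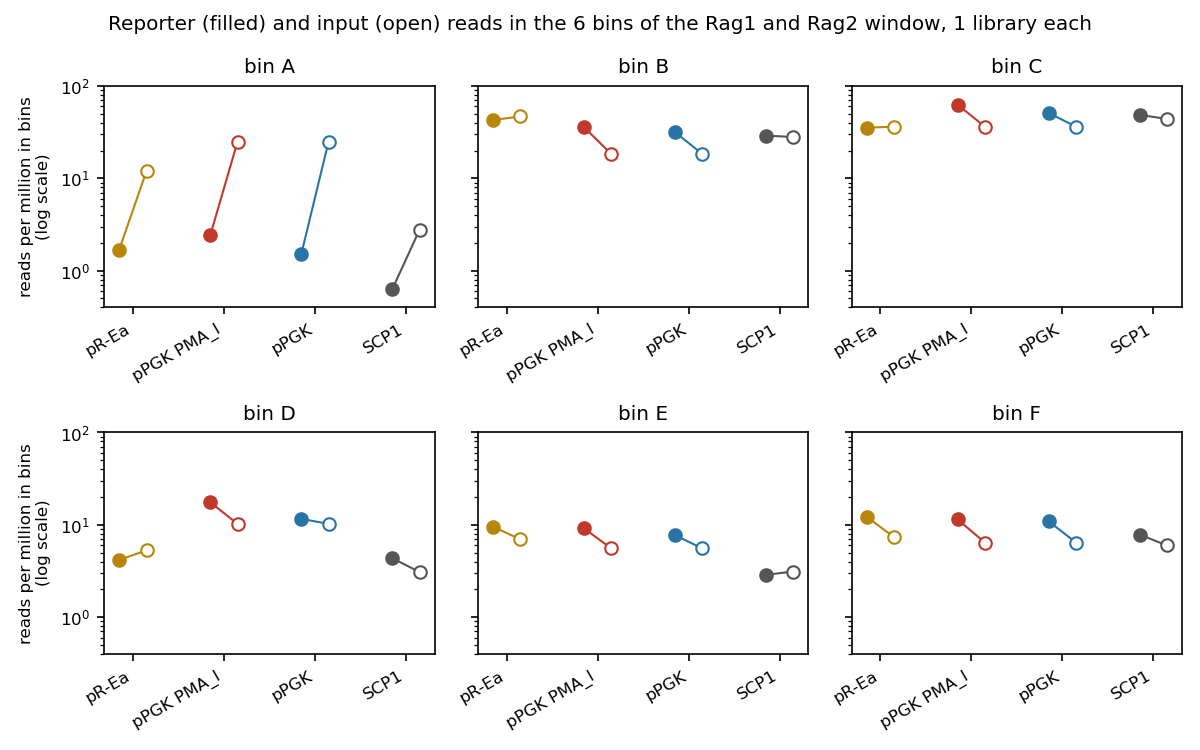
RPM (log axis) in the reporter (filled) and input (open) of each library, 1 panel for each of the bins A to F; the pPGK input is drawn for both pPGK libraries. In bin A all 4 reporters lie below their inputs, at 0.629 to 2.42 RPM.

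Among the 30117 bins of the genome, bin A ranked 154th from the lowest with pR-Ea, 158th with pPGK PMA_I, 158th with pPGK and 894th with SCP1. Calls in either direction made up 9.06%, 16.8%, 13.3% and 18.3% of bins in the same order. A call below input in all 4 libraries was rarer, at 939 bins or 3.12%, of which bin A was 1. The standard error of its log2 ratio over distinct positions was 0.38 with pR-Ea, 0.52 with pPGK PMA_I, 0.73 with pPGK and 0.56 with SCP1. With an interval over positions in place of reads the 4 calls were kept.

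Bin A also differed from the others in how its reads were spread. Its pR-Ea input reads lay on 96 positions, 1.28 reads per position. No bin that passed the input minimum had a lower value (median of these bins 3.61), and bins under the minimum were not ranked. Its SCP1 input had 1.38 reads per position on 53 positions, under which 0.0398% of bins fell (median 7.32). Its pPGK input had 3.69 on 71 positions (median 10.6), and all but 1 of the 262 input reads were on the plus strand. In bins B to F the inputs held 2.08 to 12.8 reads per position. The share of reads left out for low mapping quality was 18.4% in the pPGK input of bin A, against a median of 1.74% over all bins, and 20.7% in the same input of bin B, which was not below input. The part of these features in the low ratio was not tested.

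**Figure D2:**
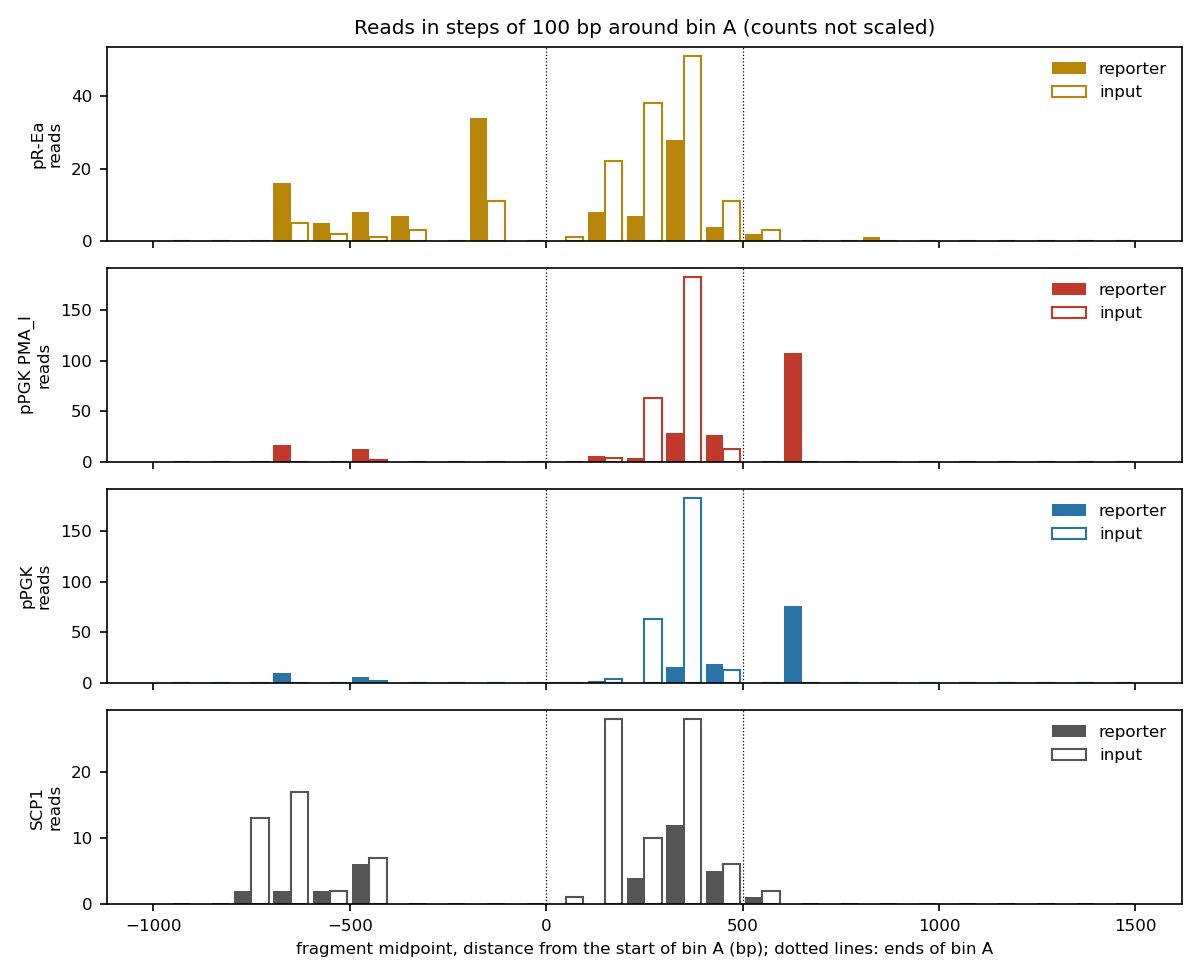
Reads (not scaled) by fragment midpoint in steps of 100 bp, around bin A, reporter filled and input open, 1 row for each library. Input reads exceed reporter reads in the middle of bin A in each row, and the pPGK reporters have a peak just after its end where their input has none.

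Within bin A most input reads had midpoints between 101435601 and 101435900. In the step from 101435801 to 101435900 the counts were 28 pR-Ea reporter against 51 input reads, 29 pPGK PMA_I and 16 pPGK reporter reads against 182 input reads, and 12 SCP1 reporter against 28 input reads. In the step before it pPGK gave 0 reporter reads and pPGK PMA_I gave 4, against 63 input reads, and pR-Ea gave 7 against 38. In the last step of the bin pR-Ea gave 4 reporter against 11 input reads, a log2 ratio of -2.71. There pPGK PMA_I gave 27 and pPGK gave 19 reporter reads against 13 input reads, log2 ratios of -0.38 and -0.76, less far below input than in the 3 steps before. The bin's limits therefore matter. On a grid moved by 250 bp the SCP1 input reads were split into 33 and 42, both under the minimum of 50, so neither piece was used and no bin there was called below input.

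Bins B and C held most of the reads, and their output was close to the average bin with pR-Ea and SCP1. Bin B (chr2:101460501-101461000) held 1191 pR-Ea reporter reads against 477 input reads, 976 pPGK PMA_I and 799 pPGK reporter reads against 192 input reads, and 970 SCP1 reporter reads against 736 input reads. Its log2 ratios were -0.13 with pR-Ea (SE 0.19 over positions), 0.96 with pPGK PMA_I (SE 0.37), 0.78 with pPGK (SE 0.56) and 0.05 with SCP1 (SE 0.23). Both pPGK values were positive but under the 2-fold threshold. They rest on an input of 15 positions, of which 1 held 96 of the 192 reads. In another setting each count lost its own position with most reads. The ratios of bin B were then 1.55 with pPGK PMA_I and 1.30 with pPGK, both called. That took 96 of 192 input reads, but 268 of 976 pPGK PMA_I and 231 of 799 pPGK reporter reads. The input lost the larger share, which by itself raises the ratios. Over all bins 17.4% and 14.9% were called in that setting.

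Bin C (chr2:101518001-101518500) had the most input reads over the 3 inputs. It held 985 pR-Ea reporter reads against 369 input reads, 1710 pPGK PMA_I and 1289 pPGK reporter reads against 379 input reads, and 1626 SCP1 reporter reads against 1155 input reads. The log2 ratios were -0.03 with pR-Ea (SE 0.14), 0.79 with pPGK PMA_I (SE 0.16), 0.49 with pPGK (SE 0.15) and 0.15 with SCP1 (SE 0.14). The intervals over positions excluded equality with both pPGK libraries and included it with pR-Ea and SCP1. The next bin (chr2:101518501-101519000) passed the minimum in the inputs of pR-Ea and SCP1, where its log2 ratios were -0.05 and 0.30.

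Bins D, E and F had fewer reads, and none of their ratios with input was called. Bin D (chr2:101556001-101556500) held 116 pR-Ea reporter reads against 54 input reads, 479 pPGK PMA_I and 293 pPGK reporter reads against 107 input reads, and 145 SCP1 reporter reads against 81 input reads. Its log2 ratios were -0.36, 0.77, 0.17 and 0.49 with pR-Ea, pPGK PMA_I, pPGK and SCP1, in that order. With pR-Ea its interval included equality (-0.82 to 0.15). Bins E and F are next to each other and form 1 stretch (chr2:101595001-101596000). Bin E held 266 pR-Ea reporter reads against 71 input reads, 250 pPGK PMA_I and 195 pPGK reporter reads against 58 input reads, and 96 SCP1 reporter reads against 82 input reads. Its log2 ratios were 0.45, 0.71, 0.46 and -0.12 in the same order. Bin F held 340 pR-Ea reporter reads against 75 input reads, 312 pPGK PMA_I and 276 pPGK reporter reads against 67 input reads, and 262 SCP1 reporter reads against 157 input reads. Its log2 ratios were 0.72, 0.82, 0.76 and 0.39, the only bin with all 4 above 0. With SCP1 the interval over positions of bin F included equality (-1.03 to 1.81), and 1 position held 63 of its 157 input reads. In the pPGK input 1 position held 39 of the 58 reads of bin E, and 1 held 35 of the 67 of bin F. The value of 0.72 put bin F in the highest part of the genome's distribution with pR-Ea, above 94.6% of bins.

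**Figure D3:**
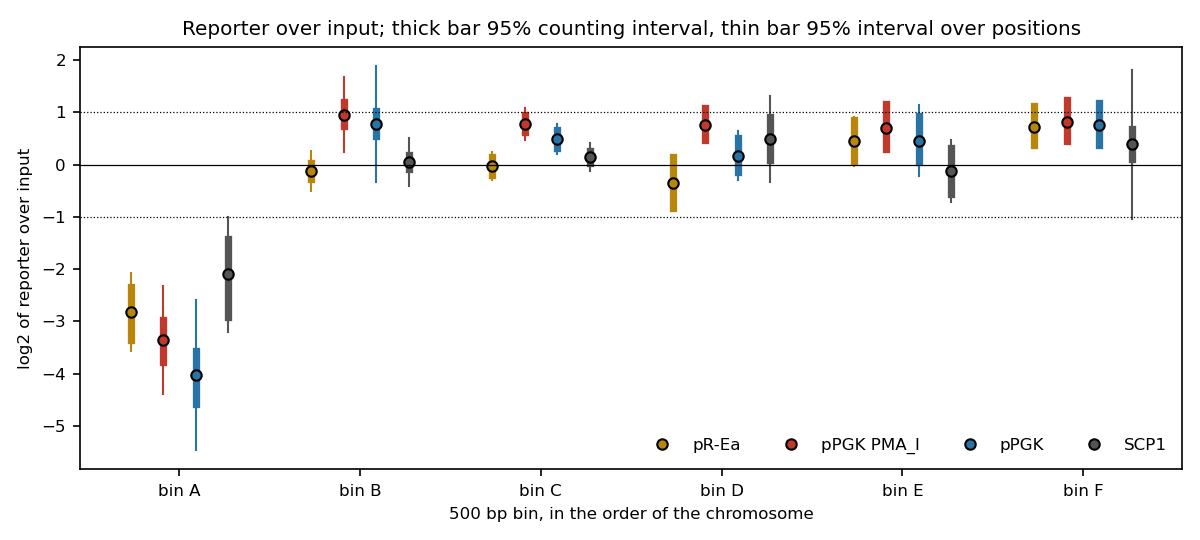
Log2 of reporter over input for bins A to F in each library; thick bars are 95% counting intervals, thin bars 95% intervals over positions, and dotted lines mark 2-fold. Bin A lies between -4.02 and -2.09, and bins B to F lie between -0.36 and 0.96.

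None of bins A to F was called above input. Over the genome, 0.787% of bins were called above with pR-Ea, 7.36% with pPGK PMA_I, 3.74% with pPGK and 3.74% with SCP1, so a count of 0 among 6 is also near the background. Without a mapping quality filter bins B to F were all called above input with pPGK PMA_I, at 1.33 to 1.48, and calls in either direction then made up 36.3% of all bins. The median over the 6 bins was -0.08 with pR-Ea, 0.78 with pPGK PMA_I, 0.48 with pPGK and 0.10 with SCP1. Over all bins the medians were -0.03, 0.06, 0.06 and -0.15. Bins B to F, which leave out the 1 low bin, ranged from 0.71 to 0.96 with pPGK PMA_I and from 0.17 to 0.78 with pPGK. All were above 0, where 53.4% and 54.0% of all bins were. With pPGK the interval over positions included equality in bins B, D and E. Bin D turned to -0.01 with pPGK when scaled to all used positions. That scaling shifts pPGK PMA_I over input by -0.34 and pPGK over input by -0.18. The same bins ranged from -0.36 to 0.72 with pR-Ea and -0.12 to 0.49 with SCP1.

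Setting pPGK PMA_I against pPGK compares the library taken as stimulated with the other library of the same promoter. There was 1 library on each side, so an effect of the stimulus itself was not tested. The counts are scaled to totals over the same bins, so a change shared by all bins would not show. Reporter reads were compared with each other, since both libraries share an input. All 6 bins had a log2 ratio above 0, though bin F turned to -0.09 when scaled to all used positions and also to -0.09 when mapping quality was asked of each file alone. None was called, where 0.783% of 30014 bins were called higher and 0.383% lower, together 1.17%. Scaling to all used positions shifts every ratio of this comparison by -0.16. The counts, with pPGK PMA_I first, were 66 and 38 reads in bin A, a log2 ratio of 0.67 (95% counting interval 0.09 to 1.30, SE 0.37 over positions). Bin D, with 479 and 293 reads, had 0.59 (0.38 to 0.81, SE 0.26). Bin C, with 1710 and 1289 reads, had 0.29 (0.19 to 0.40, SE 0.11). Bins A and D were thus the highest by ratio and bin C the most precise. The others had intervals over positions that included equality: 0.24 (SE 0.28) in bin E, 0.18 (SE 0.24) in bin B and 0.06 (SE 0.17) in bin F. That interval also included equality in bin A (-0.05 to 1.38). The median of the 6 was 0.27, against 0.05 over all bins, of which 56.3% were above 0. Without a mapping quality filter bins A and D were called, at 1.07 and 1.08, but 9.78% of all bins were then called. With each count's own position of most reads dropped, bin A was called at 1.13, with 1.19% of all bins called. There pPGK lost 18 of 38 reads and pPGK PMA_I 19 of 66, which by itself raises the ratio.

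The same ratio can be had for every bin with at least 50 reads in these reporters together, whatever its input. There were 39 such bins in the window, and 35 of them had a log2 ratio above 0. Their median was 0.37, and the median of all 268780 bins of that kind was 0.33, with 75.6% above 0. These ratios kept the totals over the 30117 bins, so 0 does not mark equality over the wider set. Scaling to all used positions would shift each of them by -0.16. One bin of the window (chr2:101514501-101515000) was called higher, with 90 pPGK PMA_I reads against 40 pPGK reads and a log2 ratio of 1.04 (0.50 to 1.63). With that shift it would lie under 2-fold and not be called. None was called lower. In the genome 9.63% of these bins were called higher and 2.28% lower. The counting interval lay above 0 in 20 of the 39 bins (51.3%), against 40.9% of the bins of the genome, and below 0 in none, against 7.66%.

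**Figure D4:**
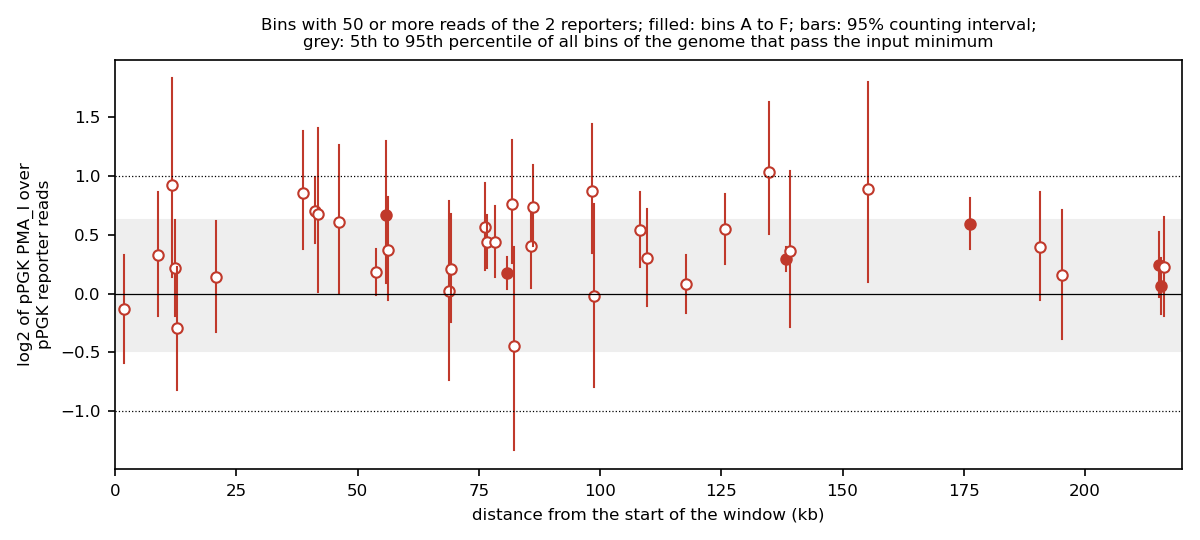
Log2 of pPGK PMA_I over pPGK reporter reads for the 39 bins of the window with at least 50 reads of the pair, by distance from the start of the window (kb); bins A to F are filled, bars are 95% counting intervals, and the grey band spans the 5th to 95th percentile of the 30014 bins tested. The 6 filled bins lie between 0.06 and 0.67. The open bins do not pass the input minimum, so the band is not their reference. The wider set of 268780 bins had a median of 0.33.

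Promoters were compared on activity, the reporter over its own input, which adjusts for unequal read numbers in the plasmid pools. It does not adjust for which fragments each pool holds. In bin A the pPGK input held 261 plus and 1 minus strand reads, and the SCP1 input 34 and 39. Different fragments and directions are therefore set against each other, and their part in the promoter differences was not tested. For pR-Ea against SCP1 no bin was called, where 9.31% of all bins were higher and 5.74% lower. For pR-Ea against pPGK none was called either, where 5.51% were higher and 6.53% lower. Bin A alone was called for pPGK against SCP1, and it was lower with pPGK, where 8.1% of all bins were higher and 2.7% lower, together 10.8%. Activity in bin A was 0.0615 of the average with pPGK and 0.234 with SCP1, a log2 difference of -1.93 (95% interval over positions -3.74 to -0.12). By distinct positions in place of reads that difference was -0.28, with no call, where 2.0% of all bins were called.

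In bins B to F the promoter differences were smaller than 2-fold. The log2 difference of pR-Ea from pPGK was -0.91 in bin B, -0.52 in bin C, -0.53 in bin D, -0.02 in bin E and -0.04 in bin F. Only the interval of bin C (-0.92 to -0.13) excluded equality. The signs of bins E and F turned under other scalings, to at most 0.17 and 0.15. The difference of pR-Ea from SCP1 ran from -0.84 in bin D to 0.57 in bin E, and that of pPGK from SCP1 from -0.31 in bin D to 0.73 in bin B. All of these intervals included equality. In bin D the interval of pR-Ea against SCP1 reached from -1.82 to 0.13, so a difference of more than 2-fold is within the error.

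The strand of a fragment sets its direction in the plasmid. Bin A lay below input on both strands with pR-Ea and with SCP1. In bin A the pR-Ea log2 ratio was -2.76 on the plus strand (28 reporter against 71 input reads) and -2.85 on the minus strand (19 against 52). With SCP1 it was -2.47 on the plus strand (7 against 34 reads, counting interval -4.04 to -1.43) and -1.76 on the minus strand (14 against 39 reads, -2.82 to -0.91). The pPGK input could not show the minus strand. In bin B the SCP1 ratio was -0.18 on the plus strand (counting interval -0.33 to -0.01) and 0.80 on the minus strand (0.50 to 1.12), from 129 minus input reads. Positions listed on both strands were counted on the plus strand, and in bin B they held 47 SCP1 reporter and 51 SCP1 input reads. The gap between the strands thus depends on that placing, and the strand ratios were not computed with the other placing. In bin E the ratio of pPGK PMA_I to pPGK was 0.90 on the plus strand (0.42 to 1.42, 106 against 52 reads) and -0.10 on the minus strand (144 against 143 reads). These strand differences rest on few positions and have no test.

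Where a bin was judged on its own input alone, more of the window could be read: 10 bins with pR-Ea, 9 with each pPGK library and 28 with SCP1. With SCP1, 4 of the 28 were called below input and none above, where 24.3% of all such bins of the genome were below and 3.65% above. One was bin A. The lowest was chr2:101434001-101434500, 26 reporter against 116 input reads and a log2 ratio of -2.46 (-3.18 to -1.88), which is separated from bin A by 2 bins. The others were chr2:101596001-101596500, next to bin F, at -1.77 (48 against 131 reads), and chr2:101521501-101522000 at -1.06 (38 against 63 reads). The highest SCP1 value was 0.78, at chr2:101449001-101449500. With pR-Ea and with pPGK, bin A was the 1 bin called below, where 8.64% and 9.77% of such bins were below and 0.974% and 5.07% above. With pPGK PMA_I bin A was called below (9.27% in the genome), and 2 of the 9 bins were called above (12.9% in the genome). These were chr2:101456501-101457000, with 410 reporter against 74 input reads (log2 1.07), and chr2:101497501-101498000, with 296 against 54 (log2 1.05). With pPGK alone they had 279 and 259 reporter reads against the same inputs, at 0.63 and 0.97.

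**Figure D5:**
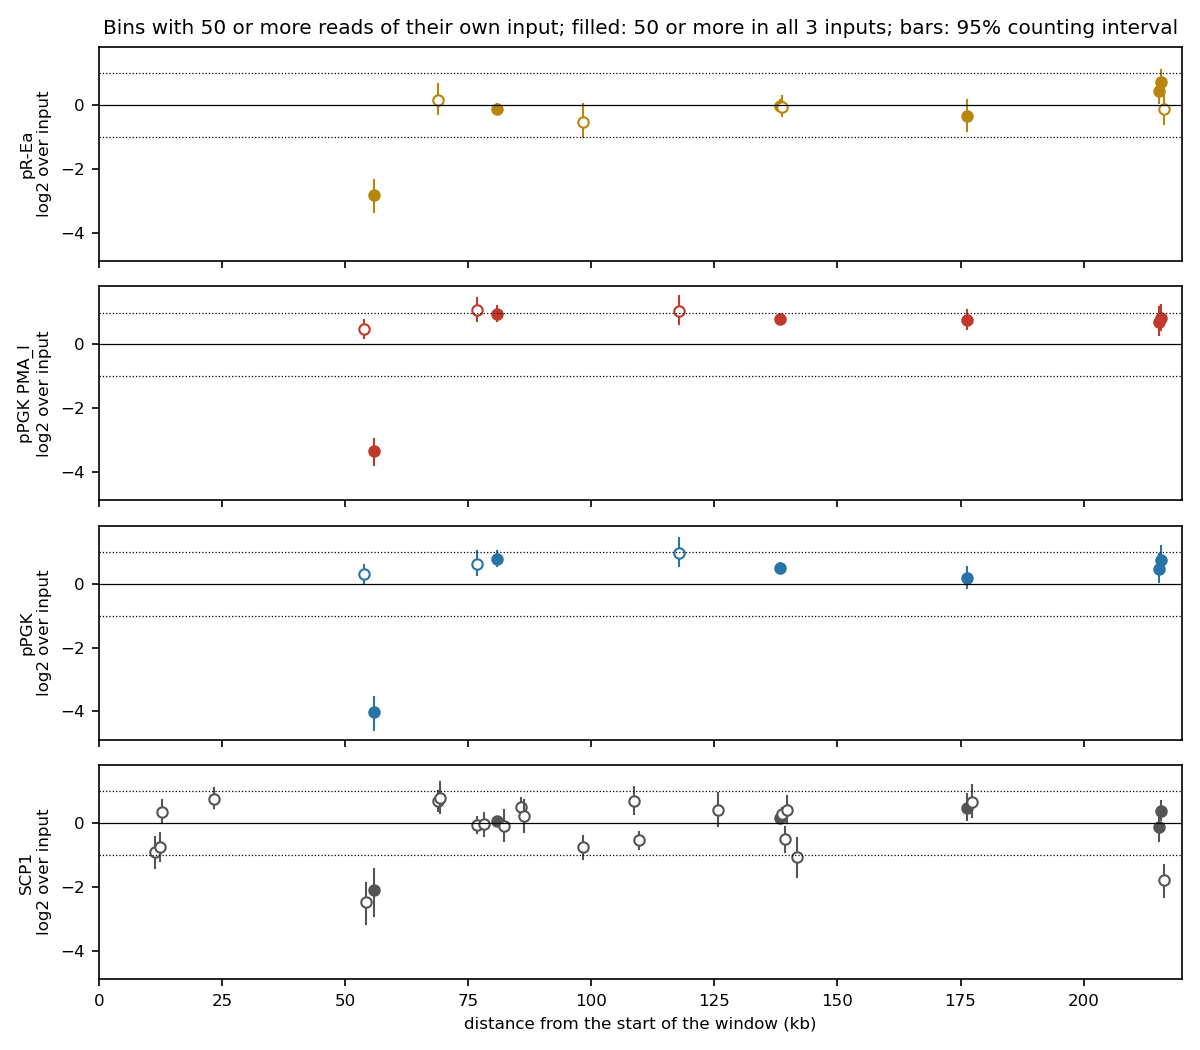
Log2 of reporter over input for each bin of the window with at least 50 reads of its own input, by distance from the start of the window (kb), 1 row for each library; filled bins pass the minimum in all 3 inputs, bars are 95% counting intervals, and dotted lines mark 2-fold. Bin A is the lowest point of the pR-Ea, pPGK PMA_I and pPGK rows, and in the SCP1 row a bin separated from it by 2 bins is lower, at -2.46.

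The input minimum decided which bins were kept. Just inside it were bin D, with 54 reads in its smallest input, and bin E, with 58. Just outside were chr2:101433501-101434000, with 37, and chr2:101458001-101458500, with 34. The first of these held 130 pR-Ea reporter reads against 43 input reads, 496 pPGK PMA_I and 404 pPGK reporter reads against 135 input reads, and 0 SCP1 reporter reads against 37 input reads. Its log2 ratios were 0.13 with pR-Ea, 0.49 with pPGK PMA_I and 0.30 with pPGK. With SCP1, where no reporter read was found, the counting interval of its log2 ratio reached up to -3.60. The second held 108 reporter against 39 input reads with pR-Ea, 226 and 154 against 34 with pPGK PMA_I and pPGK, and 152 against 123 with SCP1, at 0.00, 1.31, 0.88 and -0.04.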

How the data were processed

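The files list, per the submitters' processing notes, output of Bowtie2, SAMtools and bedtools 2.28.0 on build mm9; their order and settings were not stated. The deposited read counts belong to 5' end positions. The labels do not say which of the count columns is which. Column 7 was taken for the reporter and column 8 for the input, since column 8 was equal at all 4697308 positions with input in both pPGK files. The deposited mapping quality score was at least 30 throughout the SCP1 and pR-Ea files and as low as 0 in both pPGK files, so positions that any file lists below 30 were left out. Of the pPGK PMA_I reporter reads 98.9% lay at positions scored 30 or more, and of the pPGK reporter reads 64.1%. The filter thus bore unequally on the libraries of the stimulus comparison. A position listed on both strands carries the same counts on each line and was counted once, by its plus line. Reads were placed at fragment midpoints in 500 bp bins.

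Python 3.11.15, numpy 2.4.6 and scipy 1.17.1 were used. Counting intervals are exact (Clopper-Pearson, 95%) and cover counting error only, since PCR copies are not independent molecules. A call needed 2-fold, an interval without equality and at least 50 reads. The SE over positions takes positions as independent, and intervals of activity differences rest on it. All 6 bins are described, as the rule for bins of 25 or fewer asks. The members and lists were chosen with earlier results of these data known. Alternatives were counting, filter, grid, minimum, scaling, threshold, interval and pseudocount.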

Additional observations from a re-analysis of the deposited data

Results flagged for a closer look

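Bin A is listed here because activity differed between pPGK and SCP1, by -1.93 on the log2 scale, with an interval over positions that excluded equality, in a comparison where 10.8% of all bins were called. By distinct positions the difference was -0.28, with no call, where 2.0% of all bins were called.

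A pair of bins under the input minimum lay on opposite sides of input with pPGK and SCP1. These differences were not tested. In chr2:101433501-101434000 the log2 ratio was 0.30 with pPGK (404 reporter against 135 input reads) and, from 0 reporter against 37 input reads, -5.59 with SCP1, a value set by the pseudocount. The SCP1 counting interval reached up to -3.60. In chr2:101596001-101596500 the log2 ratio was 0.71 with pPGK (86 reporter against 21 input reads on 3 positions) and -1.77 with SCP1 (48 against 131 on 22 positions).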

How the results depend on the processing

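With bin A called below input in 1 of 6 bins for each library as the base, counting every listed line, asking mapping quality of each file alone, a median set to 0, all used positions as the total, a pseudocount of 0.5, an interval over positions and, added after seeing the data, placing positions on both strands by the minus line changed no count of called bins. Without a mapping quality filter 6 bins were called for pPGK PMA_I over input (bin A below, bins B to F above), 2 for pPGK PMA_I over pPGK, 2 for pPGK over SCP1 activity and 1 for pR-Ea over pPGK activity. The share of all bins called for pPGK PMA_I over input was then 36.3%, against 16.8%. It was 9.78% for pPGK PMA_I over pPGK, 12.9% for pPGK over SCP1 activity and 13.0% for pR-Ea over pPGK activity. By distinct positions 1 bin (bin A) was left, still below input with each library, and 0 were called for pPGK over SCP1 activity. With each count's own position of most reads dropped 3 bins were left. Then 2 were called for pPGK over input (14.9% of all bins) and 2 for pPGK PMA_I over input (17.4%). For pPGK PMA_I over pPGK 1 was called (1.19%), and for pR-Ea over pPGK activity 2 (11.4%). With bins moved by 250 bp 4 were left and 0 were called with SCP1, pPGK and pR-Ea over input. Of all bins 18.4%, 13.4% and 9.23% were called there, in the same order. The 1 called with pPGK PMA_I was above input, where 16.9% of all bins were called. The 1 called for pPGK over SCP1 activity was another bin (chr2:101517751-101518250) that was higher, at 1.24, where 10.8% were called. An input minimum of 100 left bins B and C, with 0 called for SCP1, pPGK, pPGK PMA_I and pR-Ea over input and 0 for pPGK over SCP1 activity. At that minimum 17.2%, 13.0%, 15.3%, 8.82% and 7.8% of all bins were called, in the same order. A minimum of 20 left 16 bins, with 2 called for SCP1 over input, 5 for pPGK PMA_I over input, 2 for pPGK over SCP1, 3 for pR-Ea over SCP1 and 1 for pR-Ea over pPGK activity. Over all bins the shares called were 19.6%, 19.9%, 13.6%, 16.5% and 14.3% in the same order. At a 1.5-fold threshold 3 were called for pPGK, 6 for pPGK PMA_I and 2 for pR-Ea over input (bin A below, the others above), and 2 for pPGK PMA_I over pPGK. At that threshold 35.6%, 41.3%, 29.3% and 9.08% of all bins were called, in the same order. Changes of grid, minimum and positions alter which bins are tested; other causes were not tested. The near-zero ratios over input of bin B with SCP1, bin C with pR-Ea and bin E with SCP1 turned sign under another filter, scaling or placing. Where bin A was tested, its log2 ratio stayed below input, from -3.07 to -2.16 with pR-Ea, -3.70 to -1.90 with pPGK PMA_I, -4.72 to -2.36 with pPGK and -2.26 to -1.94 with SCP1. No paired analysis was possible because each group holds 1 library, and no library could be left out. Depth limits the window: 9 of its 440 bins reached 50 reads of the pPGK input.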

Other observations

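Beside bin A, in the step chr2:101436101-101436200, the pPGK PMA_I reporter held 107 reads and the pPGK reporter 76, with 0 reads in their input and 0 in the reporter and input of both pR-Ea and SCP1.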
